A study of Mus musculus with 2 samples.

Results

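The vascular endothelial growth factor (VEGF) family of ligands and receptors was followed in MS1 cells, an immortalised endothelial line derived from mouse pancreatic islets, in which Pspc1 had been targeted with a short hairpin RNA. Members were chosen by gene name: the ligands Vegfa, Vegfb, Vegfc and Pgf, the receptors Kdr, Flt1 and Flt4, the neuropilin co-receptors Nrp1 and Nrp2, and the tip cell proteoglycan gene Esm1. Of these 10 genes, 9 were among the 11405 genes listed in both deposited tables, and Vegfc was not analysed here. There were 2 libraries. The Pspc1 shRNA library (the knockdown library) came from MS1 cells infected with a lentivirus that carried a hairpin against Pspc1, with the genotype label Pspc1 knockdown. The LacZ shRNA library (the control library) came from MS1 cells infected with a lentivirus that carried a hairpin against LacZ, a gene of bacteria that mice lack, with the genotype label wt. Both are therefore infected cultures of a single immortalised line, and whether each was a clone or a pool is not given in the sources used here. With 1 library per group no difference has a replicate check, no p-value was computed, and every comparison is between these 2 libraries.

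In vertebrates, VEGF-A is the principal growth factor of blood vessels and acts on endothelial cells mainly through the receptor tyrosine kinase VEGFR2, the product of Kdr. VEGFR1, the product of Flt1, binds VEGF-A tightly but signals weakly and also exists in a soluble form, so that it acts largely as a decoy, while VEGFR3, the product of Flt4, binds VEGF-C and VEGF-D and is best known from lymphatic vessels. Placental growth factor (Pgf) and VEGF-B bind VEGFR1 but not VEGFR2, and the neuropilins bind several VEGF ligands and class 3 semaphorins. Esm1 encodes endocan, a secreted proteoglycan that marks the tip cells which lead a growing vessel sprout and that is induced by VEGF-A.

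The promoters of 5 members are shown, among them the pairs the results turn on. Kdr is a receptor gene whose transcript was low in the knockdown library, and Flt4 one whose transcript was not. Pgf is a ligand gene whose transcript was low, and Vegfb one whose transcript was not. Esm1 is shown as well. Each window runs from 250 bases before to 50 bases after the gene's start as RefSeq gives it, on build GRCm38.p6, which is mm10. The windows are chr5:75978406-75978705 on the minus strand for Kdr, chr11:49609429-49609728 on the plus strand for Flt4, chr12:85177264-85177563 on the minus strand for Pgf, chr19:6987602-6987901 on the minus strand for Vegfb and chr13:113209409-113209708 on the plus strand for Esm1. They are written 5′ to 3′ along the gene. Capitals mark matches, on either strand, to GCGTG and ACGTG, cores of the hypoxia response element, to CACGTG, the E-box that contains ACGTG, and to CCGGAA, a core of ETS factor sites.
Kdr: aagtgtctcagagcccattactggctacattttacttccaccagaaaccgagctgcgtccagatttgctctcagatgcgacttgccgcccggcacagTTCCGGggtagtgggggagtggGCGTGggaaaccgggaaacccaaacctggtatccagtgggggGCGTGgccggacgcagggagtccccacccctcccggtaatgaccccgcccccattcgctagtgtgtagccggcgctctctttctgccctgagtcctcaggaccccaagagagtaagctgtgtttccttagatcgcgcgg
Flt4: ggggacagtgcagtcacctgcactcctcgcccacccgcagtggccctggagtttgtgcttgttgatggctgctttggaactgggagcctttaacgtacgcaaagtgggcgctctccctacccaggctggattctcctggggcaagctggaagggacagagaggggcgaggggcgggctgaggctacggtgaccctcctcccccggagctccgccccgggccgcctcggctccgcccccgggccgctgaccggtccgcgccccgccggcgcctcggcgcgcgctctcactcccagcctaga
Pgf: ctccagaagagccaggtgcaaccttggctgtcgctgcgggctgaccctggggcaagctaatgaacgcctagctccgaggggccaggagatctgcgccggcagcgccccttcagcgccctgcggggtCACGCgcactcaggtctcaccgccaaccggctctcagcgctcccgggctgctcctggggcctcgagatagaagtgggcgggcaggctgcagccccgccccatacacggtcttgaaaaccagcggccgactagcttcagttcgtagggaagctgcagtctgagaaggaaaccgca
Vegfb: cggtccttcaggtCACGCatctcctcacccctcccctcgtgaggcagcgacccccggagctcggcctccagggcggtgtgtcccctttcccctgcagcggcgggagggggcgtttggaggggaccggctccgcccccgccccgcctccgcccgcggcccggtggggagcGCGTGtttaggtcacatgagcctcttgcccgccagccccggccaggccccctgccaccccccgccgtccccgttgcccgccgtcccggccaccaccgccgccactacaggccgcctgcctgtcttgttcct
Esm1: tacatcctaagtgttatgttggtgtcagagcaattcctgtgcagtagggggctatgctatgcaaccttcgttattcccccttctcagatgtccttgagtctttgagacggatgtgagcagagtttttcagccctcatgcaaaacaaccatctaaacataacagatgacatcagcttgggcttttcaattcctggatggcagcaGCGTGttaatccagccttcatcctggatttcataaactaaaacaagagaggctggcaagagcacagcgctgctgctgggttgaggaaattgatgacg
The Esm1 window stood apart in base composition, with 46.3% G and C and 5 CpG dinucleotides, whereas the windows of Kdr, Flt4, Pgf and Vegfb held 60.7%, 70.3%, 66.0% and 75.3% G and C with 19, 26, 23 and 31 CpG. The median over 32841 RefSeq windows was 52.7% G and C and 7 CpG. GCGTG was found in the windows of Kdr (2 matches), Pgf and Esm1 (1 match each), but also in that of Vegfb (2 matches), and it is held by 32.4% of all windows. CCGGAA was found only in the Kdr window among the 5 shown, and 14.9% of all windows hold it. None of the 5 windows held ACGTG or CACGTG, which occur in 19.6% and 7.15% of all windows. RefSeq gave 11 windows for the 9 listed members, and among the first windows of the other 4, those of Flt1, Nrp1 and Nrp2 held GCGTG and that of Vegfa none of the motifs. Vegfa and Pgf each had a further window downstream, not shown. That of Vegfa held 1 match to GCGTG and 1 to ACGTG, and that of Pgf none of the motifs. These matches describe the letters of the windows and were not tested as binding sites.

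The knockdown library held 53518762 reads on the listed genes and the control library 64009912. Pspc1 itself, which encodes a paraspeckle protein, had a value of 3.78 in the knockdown library and 28.8 in the control library, or 7.62-fold less. Values are the authors' scaled reads per gene as deposited. The log2 ratio is that of the Pspc1 shRNA value over the LacZ shRNA value after 0.5 was added to each, which understates the change of low genes, and a gene was called higher or lower when its mean of both values was at least 50 and the change at least 2-fold. Endothelial identity was checked with 12 markers, of which 10 were listed, summing to 7470 in the knockdown library and 7107 in the control library. Of these 10, 5 had a log2 ratio above 0 and 5 below, and none was called. They ranged from -0.89 for Tek (7.13 in the knockdown library and 13.6 in the control library), -0.75 for Cdh5 and -0.49 for Erg to 0.59 for Esam (566.1 in the knockdown library and 376.5 in the control library). The sum rests mostly on Pecam1, Egfl7 and Tie1, and Cldn5 and Vwf were not analysed here. Of the markers of other cell types, none of the 7 for islet endocrine cells was listed, 1 of 8 for pericytes and smooth muscle, 2 of 7 for fibroblasts and 1 of 6 for macrophages. The listed ones summed to 2.38 in the knockdown library and 0.720 in the control library for pericytes (Pdgfrb), 23.7 and 20.7 for fibroblasts in the knockdown and control libraries, and 123.7 and 102.7 for macrophages (Cd68) in the knockdown and control libraries. Of 6 epithelial markers 2 were listed, Krt18 and Krt19, which summed to 152.1 in the knockdown library and 47.7 in the control library. Krt19 was called higher, with 115.2 in the knockdown library and 23.8 in the control library (log2 ratio 2.25). No other of the 3629 genes whose mean reached 50 had a higher log2 ratio. Krt18 had 36.9 in the knockdown library and 23.9 in the control library (0.62), with a mean under the minimum. The part of these differences in the results on VEGF genes was not tested. Of the lymphatic markers other than Flt4, Lyve1 had values of 15.5 in the knockdown library and 25.7 in the control library, Pdpn had 8.02 in the knockdown library and 8.11 in the control library, and Reln had 0.670 in the knockdown library and 1.93 in the control library (-1.06, with a mean far under the minimum). Prox1, the regulator of lymphatic identity, and Ccl21a were not analysed here. In RNA from whole cultures, fewer cells that express a gene and less RNA per cell cannot be told apart.

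Members of the family did not move together. Esm1 and Pgf were lower in the knockdown library by the size rule, Kdr lay just short of it, and Flt4, Vegfb and both neuropilins differed little. Of the 9 listed members 5 had a mean of at least 50, of which 2 were called lower and none higher. Among all 3629 genes of that level, 0.937% were called lower and 0.551% higher. The members were proposed with results of these data known, so their share beside that of all genes is a description. The median log2 ratio of the 5 members was -0.94, against 0.07 for all genes of that level. Vegfa, Flt1, Nrp1 and Nrp2 had means under 50 and are given by value.

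**Figure D1:**
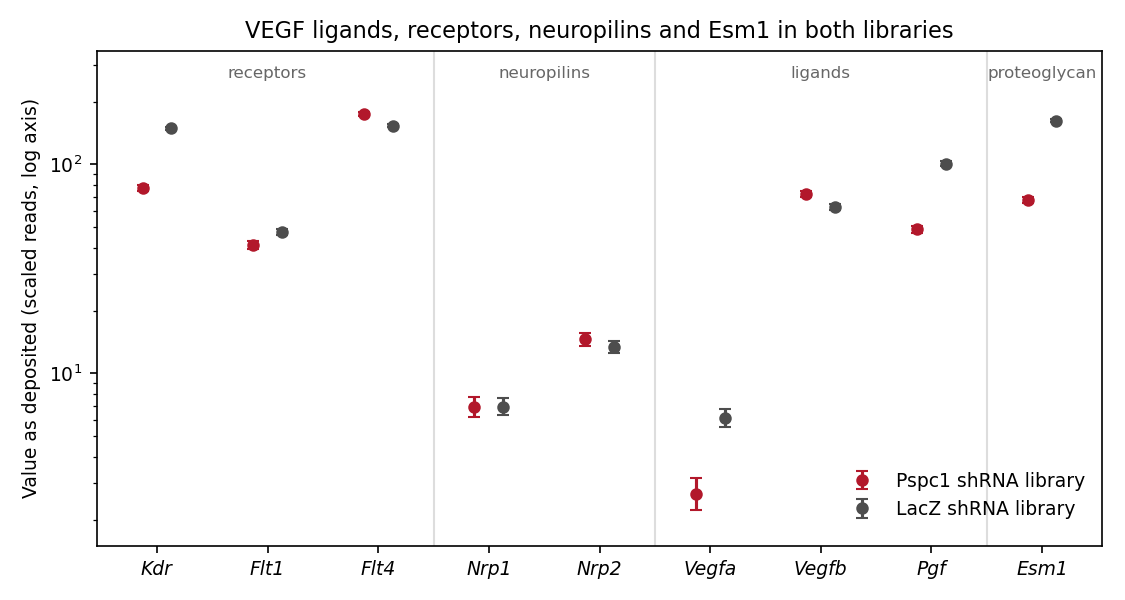
Values as deposited (log axis) of the 9 listed members in the Pspc1 shRNA library (red) and the LacZ shRNA library (grey), 1 library each. Bars are 95% exact Poisson intervals of the reads and cover counting error only. The red points of Kdr, Vegfa, Pgf and Esm1 lie well below the grey ones, and those of Flt4 and Vegfb lie slightly above.

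The receptors differed from one another. Kdr (ENSMUSG00000062960, mm10 chromosome 5, 75932827 to 75978458, minus strand) stood at 77.3 in the knockdown library, against 148.9 in the control library. The transcript of the receptor through which VEGF-A mainly signals was thus 1.93-fold lower, just inside 2-fold. Receptor protein was not measured. Its log2 ratio was -0.94, and the 95% counting interval of the ratio, computed here and for the other members from reads without a pseudocount, ran from -0.9997 to -0.89. Among the 3629 genes of mean 50 or more, 40 had a log2 ratio as low as that of Kdr or lower, Kdr included. When the libraries were scaled by total reads the log2 ratio of Kdr was -1.04, past 2-fold. It was -0.90 under a trimmed mean of M values and -0.89 under median-of-ratios scaling, both further from 2-fold.

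Flt4 (ENSMUSG00000020357, mm10 chromosome 11, 49609263 to 49652739, plus strand) had values of 174.2 in the knockdown library and 153.3 in the control library. VEGFR3 transcript was therefore slightly more abundant in the knockdown library, with a log2 ratio of 0.18 (interval 0.14 to 0.23) that lay between 0.08 and 0.24 over the alternatives tried. Flt1 (ENSMUSG00000029648, mm10 chromosome 5, 147561604 to 147726011, minus strand), the decoy receptor, had 41.3 in the knockdown library and 47.4 in the control library. Its log2 ratio was -0.20 (interval -0.28 to -0.12), and it was 0.00 after a trend on exonic length and GC content was subtracted. The annotation holds 2 coding transcripts of Flt1, and values per gene do not separate the soluble from the membrane form.

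The balance of receptors within a library differed between the libraries. Per length of exons, the level of Kdr was 2.80 times that of Flt1 in the knockdown library (counting interval 2.65 to 2.95), against 4.69 times in the control library (4.51 to 4.89). The level of Flt4 per length was 2.47 times that of Kdr in the knockdown library (2.38 to 2.57), against 1.13 times in the control library (1.10 to 1.16). By the exon lengths used, Flt4 was thus the most abundant VEGF receptor transcript per length in both libraries. The margin was wide in the knockdown library and narrow in the control library. In the control library the values themselves were close, 153.3 for Flt4 and 148.9 for Kdr. The narrow margin there rests mostly on the exonic lengths, 8232 bp for Flt4 and 9030 bp for Kdr, which the interval takes as known. The ratios between receptors are taken within a library and do not depend on the scaling between libraries, but they carry no replicate error.

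The neuropilins were low and nearly equal between the libraries. Nrp1 (ENSMUSG00000025810, mm10 chromosome 8, 128358604 to 128503363, plus strand) had 6.91 in the knockdown library and 6.94 in the control library. Nrp2 (ENSMUSG00000025969, mm10 chromosome 1, 62703285 to 62818695, plus strand) had 14.6 in the knockdown library and 13.4 in the control library. Both co-receptors had counting intervals that included equality, from -0.21 to 0.20 for Nrp1 and from -0.02 to 0.27 for Nrp2 on the log2 scale. They rested on 351 and 453 reads for Nrp1 and 740 and 873 for Nrp2 in the knockdown and control libraries. The sign for Nrp1, whose log2 ratio was -0.01, turned under median-of-ratios scaling (0.04), under a trimmed mean of M values (0.03) and after the length and GC trend was subtracted (0.32), so no direction is given.

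**Figure D2:**
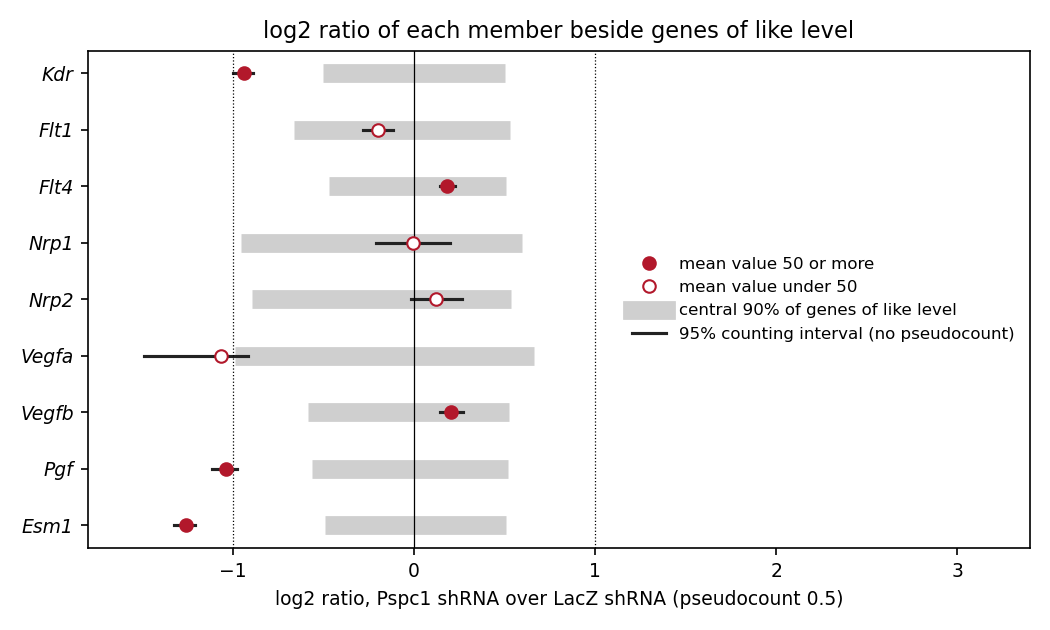
log2 ratio of the Pspc1 shRNA over the LacZ shRNA value of each member (circles, filled where the mean is at least 50), with its 95% counting interval (black line, no pseudocount). Grey bars span the central 90% of log2 ratios among genes whose mean lies within 2-fold of the member's. Kdr, Pgf, Esm1 and, by a small margin, Vegfa lie to the left of their grey bars, and the other 5 members lie inside theirs.

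Counting error is small at this depth, so each member was also set beside the spread of genes of like level, those with a mean within 2-fold of its own. For Kdr the central 90% of 2489 such genes ran from -0.50 to 0.50 on the log2 scale, for Pgf of 2954 genes from -0.57 to 0.52, and for Esm1 of 2459 genes from -0.50 to 0.50. These 3 members lay below those ranges. Vegfa, at -1.07, lay just under its range of -0.99 to 0.66 over 2319 genes. Flt1, Flt4, Nrp1, Nrp2 and Vegfb lay inside theirs.

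Among the ligands, Pgf was low and Vegfb was not. Pgf (ENSMUSG00000004791, mm10 chromosome 12, 85166635 to 85177790, minus strand) stood at 48.9 in the knockdown library, against 101.0 in the control library. Placental growth factor transcript was thus 2.07-fold lower, with a log2 ratio of -1.04 and an interval of -1.11 to -0.98. This lies at the edge of the size rule: the log2 ratio was -0.98 with a pseudocount of 5, -0.99 under median-of-ratios scaling and -0.998 under a trimmed mean of M values, each of which ends the call. Vegfb (ENSMUSG00000024962, mm10 chromosome 19, 6982473 to 6987651, minus strand), the other VEGFR1-specific ligand, had 72.3 in the knockdown library and 62.8 in the control library. Its log2 ratio was 0.20 (interval 0.14 to 0.27), opposite in sign to that of Pgf, and lay between 0.04 and 0.25 over the alternatives tried. Per length, the level of Pgf was 0.374 times that of Vegfb in the knockdown library (0.355 to 0.393), against 0.890 times in the control library (0.856 to 0.925).

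Vegfa was low in both libraries. Vegfa (ENSMUSG00000023951, mm10 chromosome 17, 46016993 to 46032369, minus strand) had 2.66 in the knockdown library and 6.11 in the control library, from 135 and 399 reads. Its value was 2.30-fold lower in the knockdown library without a pseudocount (interval -1.49 to -0.92 log2), but the mean of 4.39 was too low for the size rule. With a pseudocount of 5 the log2 ratio was -0.54. The annotation gives 8 coding transcripts of Vegfa, which encode isoforms that differ in binding to heparin and neuropilins, and these were not separated. Per length, Vegfb exceeded Vegfa 72.6-fold in the knockdown library (interval 61.1 to 86.9) and 27.4-fold in the control library (24.7 to 30.4).

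Esm1 had the lowest log2 ratio of the 9 listed members. Esm1 (ENSMUSG00000042379, mm10 chromosome 13, 113209659 to 113218098, plus strand) stood at 67.3 in the knockdown library, against 162.1 in the control library. The endocan transcript was 2.41-fold lower, with a log2 ratio of -1.26 and an interval of -1.32 to -1.21. Only 18 of 3629 genes with a mean of at least 50 had a log2 ratio that low, Esm1 included. It was called lower under each of the 8 alternatives tried, with log2 ratios between -1.37 and -1.21.

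**Figure D3:**
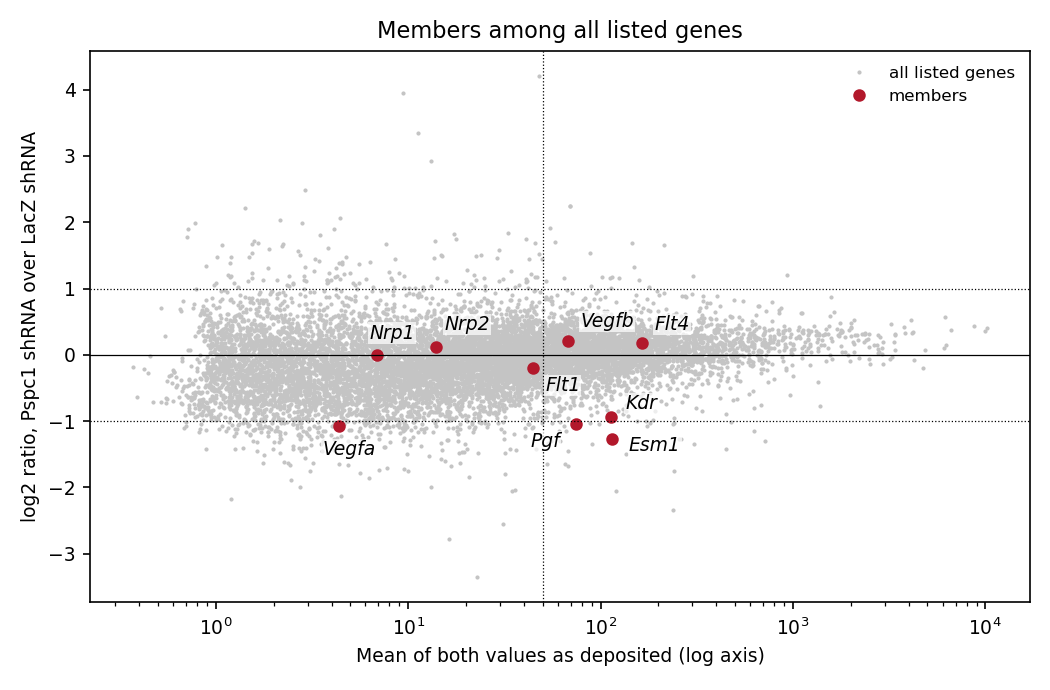
log2 ratio against the mean of both values (log axis) for all 11405 listed genes (grey) and the 9 listed members (red). The vertical dotted line marks a mean of 50 and the horizontal ones a 2-fold change. Esm1, Pgf and Kdr lie at the lower edge of genes of their level.

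Levels of different members can be compared only per length of exons, and their order differed between the libraries. In the knockdown library Vegfb stood first with a value of 45.1 per kb of exons, followed by Esm1 with 32.1, Flt4 with 21.2, Pgf with 16.8 and Kdr with 8.56. In the control library Esm1 stood first with 77.3 per kb, followed by Vegfb with 39.1, Pgf with 34.8, Flt4 with 18.6 and Kdr with 16.5. Flt1 was next in both, with 3.06 per kb in the knockdown library and 3.51 in the control library. At the low end, Nrp2, Nrp1 and Vegfa had 1.23, 0.707 and 0.621 per kb in the knockdown library, while Vegfa, Nrp2 and Nrp1 had 1.43, 1.13 and 0.709 per kb in the control library. Neighbours in each order differed by more than counting error, except Nrp1 and Vegfa in the knockdown library (ratio 1.14, interval 0.931 to 1.40). With no replicates, the spread between cultures is unknown for all of these steps, and the intervals take the exon lengths as known.

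**Figure D4:**
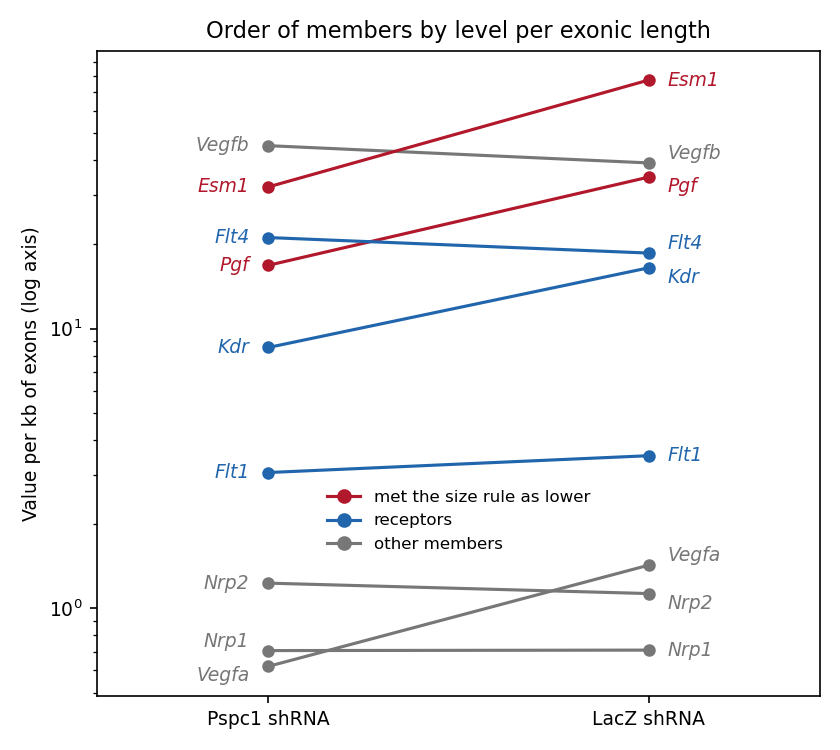
Value per kb of exons (log axis) of each listed member in the Pspc1 shRNA library (left) and the LacZ shRNA library (right), joined by lines. Members called lower are red, receptors blue and the others grey. The line of Esm1 crosses that of Vegfb, the line of Pgf crosses that of Flt4, and the line of Vegfa crosses those of Nrp2 and Nrp1. Kdr separates from Flt4 on the left.

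Exonic lengths of the members ran from 1605 bp for Vegfb to 13504 bp for Flt1. Across genes with means of 20 or more, the log2 ratio was modestly correlated with length and GC content. Spearman's rho over 5889 genes with means of 20 or more was -0.32 between the log2 ratio and exonic length, and 0.28 between the log2 ratio and GC content. These describe genes of one pair of libraries, and genes are not independent replicates. Esm1 and Pgf have short exons in total (2097 and 2903 bp, against a median of 4171 bp). Their GC content was 43.4% and 56.3%, against a median of 51.8%. After the trend on both was subtracted, the log2 ratios of Esm1 and Pgf were -1.24 and -1.16. Kdr, at 9030 bp, had -0.81 after subtraction. No exon of a member overlapped that of another listed gene.

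Genes for the proteins that carry the VEGF signal inside the cell were not called in either direction. Of 56 genes listed for VEGF receptor signalling 51 were in the tables and 25 had a mean of at least 50, of which 12 had a log2 ratio above 0 and 13 below. Their median was 0.00, against 0.07 for all genes of that level. Of all 3629 genes of that level 2180 had a log2 ratio above 0 and 1449 below, which is the background for the signs in each list. As 0.937% of all genes of that level were called lower and 0.551% higher, no call among 25 is near that share. Hspb1, the small heat shock protein that p38 signalling phosphorylates, had 520.9 in the knockdown library and 281.6 in the control library (log2 ratio 0.89), and the kinase gene Akt1 had 760.9 in the knockdown library and 1161 in the control library (-0.61). Akt2 had 92.7 in the knockdown library and 63.5 in the control library (0.54). Mapk11, a p38 kinase, had 98.6 in the knockdown library and 68.5 in the control library (0.52). Plcg1, the phospholipase that docks on VEGFR2, was named after its values were seen and had 155.5 in the knockdown library and 144.3 in the control library.

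Genes that move VEGFR2 into the cell or remove its phosphate groups also held no call. Of 21 such genes, all listed, 10 had a mean of at least 50, with 4 log2 ratios above 0 and 6 below and a median of -0.04. Over all genes of that level 2180 were above 0 and 1449 below, with a median of 0.07. No call among 10 is near the share over all genes of that level (0.937% lower and 0.551% higher). Cdh5, the junction protein VE-cadherin that associates with VEGFR2, had 511.2 in the knockdown library and 859.4 in the control library (-0.75). The endocytic adaptor gene Dab2 had 76.3 in the knockdown library and 100.9 in the control library (-0.40), and Ap2a1, another adaptor gene, had 180.5 in the knockdown library and 138.0 in the control library (0.39). The endosomal GTPase gene Rab7 had 282.3 in the knockdown library and 313.0 in the control library (-0.15). Efnb2, the ephrin that promotes VEGF receptor uptake, was named after its values were seen and had 13.3 in the knockdown library and 27.3 in the control library.

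Early genes that VEGF-A induces in endothelial cells showed no call. Of 17, 13 were listed and 7 had a mean of at least 50, with 3 log2 ratios above 0, 4 below and a median of -0.02. The absence of calls among 7 is near the share over all genes of that level (0.937% lower and 0.551% higher). Dusp5, an ERK phosphatase, had 206.6 in the knockdown library and 125.7 in the control library (0.71). Fosl1, an AP-1 subunit, had 40.1 in the knockdown library and 60.6 in the control library (-0.59). Of the related phosphatase genes, Dusp6 had 52.1 in the knockdown library and 65.6 in the control library (-0.33), and Dusp1 had 269.0 in the knockdown library and 319.6 in the control library (-0.25). Rcan1, a calcineurin inhibitor that the VEGF-NFAT route induces, was named after its values were seen and had 101.0 in the knockdown library and 102.6 in the control library.

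Most of the listed tip cell genes had log2 ratios below 0, as Esm1 did. Of 16 tip cell genes 11 were listed, 8 of them with a log2 ratio below 0, Esm1 included. Over all 11405 listed genes 6252 were below 0. So were 33 of the 51 listed signalling genes and 15 of the 21 trafficking genes, so this direction is not particular to tip cell genes. Of the tip cell genes 9 reached a mean of at least 50, with 3 log2 ratios above 0, 6 below and a median of -0.09. Over all genes of that level 2180 were above 0 and 1449 below. Besides Esm1, Angpt2 and Dll4 were called lower and none higher, while 0.937% of all genes of that level were called lower. Angpt2, a ligand of the Tie2 receptor, had 46.1 in the knockdown library and 193.6 in the control library (-2.06), and Dll4, a Notch ligand, had 31.9 in the knockdown library and 78.9 in the control library (-1.29). Apln, which encodes the tip cell peptide apelin, had 4160 in the knockdown library and 4382 in the control library (-0.08). Pdgfb, which recruits pericytes, had 239.4 in the knockdown library and 212.3 in the control library (0.17). Mcam had 182.8 in the knockdown library and 290.3 in the control library (-0.67) and was not called. Apln, Pdgfb and Mcam were named after their values were seen. The results for Angpt2 and Dll4 were known when the list was written.

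Among the partners of the neuropilins a plexin was called lower. Of 12 class 3 semaphorins and plexins 6 were listed and 4 had a mean of at least 50, of which 1, Plxnd1, was called lower and none higher. Over all genes of that level 0.937% were called lower. Of the 4, 1 had a log2 ratio above 0 and 3 below, with a median of -0.80, against 0.07 for all genes of that level. The list was written with earlier results of these data known, so its share is a description. Plxnd1, a semaphorin receptor of endothelium, had 154.3 in the knockdown library and 371.3 in the control library (-1.26). The A-type plexins that pair with neuropilins, Plxna2 (96.6 in the knockdown library and 174.2 in the control library, -0.85) and Plxna1 (59.5 in the knockdown library and 100.7 in the control library, -0.75), were not called. Sema3f, a ligand of Nrp2, had 129.9 in the knockdown library and 98.9 in the control library (0.39). The last 3 were named as the remaining genes of that level, after their values were seen.

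**Figure D5:**
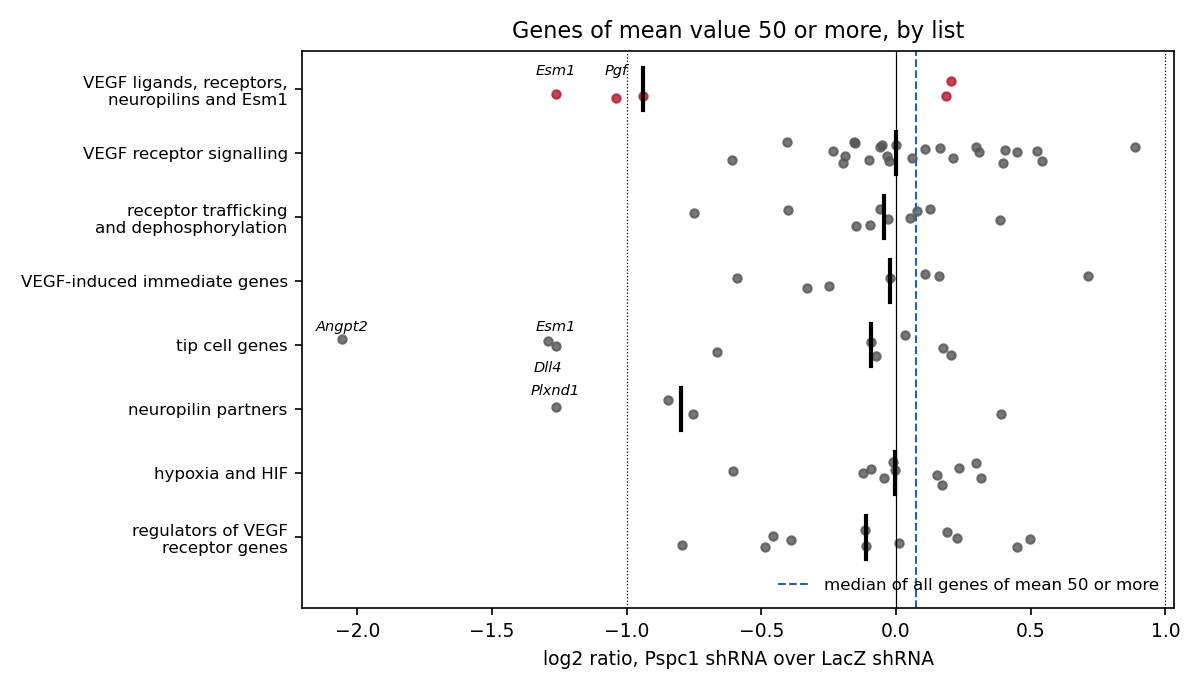
log2 ratios of genes with a mean of at least 50, by list, with the list's median (black bar) and the median of all genes of that level (blue dashed line, 0.07). The members include 3 genes near or past -1 and 2 slightly above 0, and the signalling list lies around 0. Vertical dotted lines mark a 2-fold change, and the named points are genes past it.

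Hypoxia, which induces Vegfa in many cells, was followed through 26 gene symbols of the HIF system, Ero1l and Ero1a being names of one gene. Of these 25 were listed and 11 reached a mean of 50. None was called, with 5 log2 ratios above 0, 6 below and a median of 0.00. That is near the share over all genes of that level, of which 0.937% were called lower and 0.551% higher. Egln3, an oxygen sensor that is itself a HIF target, had 40.3 in the knockdown library and 61.6 in the control library (-0.61). The HIF targets Pgk1 (1626 in the knockdown library and 1307 in the control library, 0.32) and Slc2a1 (660.8 in the knockdown library and 537.9 in the control library, 0.30) were not called. Hif1an, which encodes an inhibitor of HIF, had 162.3 in the knockdown library and 137.9 in the control library (0.23). The genes of the HIF subunits had means under 50. Hif1a had 5.54 in the knockdown library and 15.0 in the control library (-1.36). Epas1 had 5.26 in the knockdown library and 13.6 in the control library (-1.29). Arnt, also a HIF subunit gene, went slightly the other way, with 21.96 in the knockdown library and 19.49 in the control library (0.17). Hif1a, Epas1 and Arnt were named after their values were seen.

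Of 25 transcription factors known to regulate VEGF receptor genes or endothelial identity 21 were listed and 11 reached a mean of 50. None of these 11 was called, which is near the share over all genes of that level (0.937% lower and 0.551% higher). Their log2 ratios lay between -0.80 and 0.50, with 5 above 0 and 6 below and a median of -0.11. Sox18, a factor of vessel development, had 47.3 in the knockdown library and 82.5 in the control library (-0.80). The ETS factor gene Erg had 85.0 in the knockdown library and 119.4 in the control library (-0.49), and Elk3, also of the ETS family, had 66.7 in the knockdown library and 91.8 in the control library (-0.46). Gata2, a GATA factor of blood and endothelial cells, had 103.1 in the knockdown library and 72.9 in the control library (0.50).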

How the data were processed

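Poly-A RNA of MS1 cells was sequenced in 1 library per group, grouped by the treatment label. The submitters' processing notes name build mm10 and DESeq 1.39.0, featureCounts 2.0.0, HISAT2 2.1.0 and Trimmomatic 0.39, without a role or order. The authors deposited a signal per gene that was already scaled; the annotation, scaling formula and filter are not given in the sources used here, and the kit is not stated to mark strand. Each value was a whole multiple of 1 step per library, within 0.01 reads (100% of values), which gave the reads behind it. The values were used as deposited, with 0.5 added to each for log2 ratios.

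Intervals are 95% exact conditional binomial (Clopper-Pearson) for ratios and exact Poisson for single values. Reads carry no molecular identifiers, so intervals cover counting error only. The members, lists and the size rule were chosen with earlier results of these data known. The genes named are all members, Pspc1, and in each list the genes past the size rule or, where none passed, up to 4 with the largest absolute log2 ratio among those with a mean of at least 50. Levels per length used merged exons of GENCODE M21, and GC content came from the longest transcript; 11399 genes had both. The ranges of genes of like level were added after the data were seen. The planned comparison of protein sequences was not run. Steps were checked on simulated reads. Calculations used Python 3.11.15, numpy 2.4.6, pandas 2.3.3, scipy 1.17.1 and matplotlib 3.10.9.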

Additional observations from a re-analysis of the deposited data

How the results depend on the processing

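The alternatives were scaling by total reads, by median of ratios and by a trimmed mean of M values, no pseudocount or a pseudocount of 5, a mean of at least 20 or no filter on the mean, and subtraction of a length and GC trend. The count of members called lower was 2, and 1 (Esm1) with a pseudocount of 5, median-of-ratios scaling or a trimmed mean of M values. It was 3 with scaling by total reads, which adds Kdr, and 3 with no filter, which adds Vegfa. No member was called higher under any of them. Over all genes 34 were lower and 20 higher, against 71 and 50 with a mean of at least 20 and 306 and 149 with no filter. Of all calls 37.0% were higher, against 25.4% with total reads, 48.9% with median-of-ratios scaling and 47.9% with a trimmed mean of M values. Scaling by total reads shifted the median log2 ratio of all listed genes by -0.10. With no filter, 2 genes were lower in the signalling list, 1 in the trafficking list (Efnb2, also with a mean of at least 20) and 2 in the hypoxia list (Hif1a and Epas1). No paired analysis was possible because each group had 1 library, and no library could be left out. Depth limits Vegfa, Nrp1 and Nrp2 most.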

Other observations

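The genes next to the members on their chromosomes were also looked up. The nearest coding gene to Kdr on its left is Kit, another receptor tyrosine kinase gene, 276105 bp away. Kit had a value of 13.7 in the Pspc1 shRNA library and 57.9 in the LacZ shRNA library (log2 ratio -2.04), with a mean too low for the size rule. On the other side of Kdr, Srd5a3 had 39.7 in the Pspc1 shRNA library and 47.5 in the LacZ shRNA library (-0.26). The neighbours of Pgf did not share its direction: Eif2b2 had 173.2 in the Pspc1 shRNA library and 127.2 in the LacZ shRNA library (0.44), and Rps6kl1 had 22.1 in the Pspc1 shRNA library and 21.5 in the LacZ shRNA library (0.04). Vegfb lies 260 bp from Dnajc4, which had 32.6 in the Pspc1 shRNA library and 21.9 in the LacZ shRNA library (0.56), and on its other side Fkbp2 had 124.7 in the Pspc1 shRNA library and 110.7 in the LacZ shRNA library (0.17). Next to Nrp1, Itgb1 had 127.1 in the Pspc1 shRNA library and 196.6 in the LacZ shRNA library (-0.63), and Pard3 had 27.5 in the Pspc1 shRNA library and 29.1 in the LacZ shRNA library (-0.08). Beside Flt1, Pan3 had 12.1 in the Pspc1 shRNA library and 16.8 in the LacZ shRNA library (-0.45), and Pomp had 413.6 in the Pspc1 shRNA library and 339.3 in the LacZ shRNA library (0.28). The neighbours of Nrp2 were near the lower limit of the tables, with 1.06 in the Pspc1 shRNA library and 1.394 in the LacZ shRNA library for Pard3b (-0.28) and 1.02 in the Pspc1 shRNA library and 2.30 in the LacZ shRNA library for Ino80d (-0.88). Mrps18a, beside Vegfa, had 95.8 in the Pspc1 shRNA library and 86.9 in the LacZ shRNA library (0.14). The other neighbour of Vegfa and both neighbours of Flt4 and Esm1 were not analysed here. The neighbours were taken by position, not by their values, and no relation to the members was tested.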
